A study of Mus musculus with 20 samples.

Results

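Malat1, Neat1, Tug1, Firre, Pvt1, Dleu2 and Gas5 are long non-coding RNAs that are largely kept in the nucleus or are hosts of small RNAs. Their N6-methyladenosine (m6A) was followed here in the chromatin-associated RNA of mouse embryonic stem cells. These 7 genes were taken from the 55450 annotated genes of the mouse mm10 genome build, of which 14601 held at least 1 m6A peak. A peak was assigned to a gene when its summit lay in the gene body on the same strand, and 376 of the 437949 peaks in 10 libraries met that rule. Peaks of different libraries that overlapped on the same strand were merged into regions, numbered here from the start of each gene, which gave 64 regions of 87498 in all.

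All cells were C57BL/6 mouse embryonic stem cells grown with 1000 U/ml LIF, 3 µM CHIR99021 (an inhibitor of the kinase GSK3) and 1 µM PD0325901 (an inhibitor of the kinase MEK), a medium that holds them undifferentiated. An m6A antibody was used to enrich fragments of chromatin-bound RNA in 5 groups of 2 libraries each. The groups were a Mettl3 control, the knockout lines KO1 and KO2 of Mettl3 (the catalytic subunit of the m6A methyltransferase), a Ythdc1 control, and cells with Ythdc1 (the nuclear reader protein of m6A) removed conditionally, named cKO. KO1 and KO2 are separate lines set against a common control, and the agent and driver of the conditional removal are not given in the sources used here. Inputs were not analysed here, so less transcript and less m6A per transcript cannot be told apart in any comparison below, and neither can fewer cells that make an RNA and less of it per cell. Separate cultures are not stated for the 2 libraries of a group, and the p-values cover the spread among libraries alone, which may be technical.

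m6A is written onto nascent RNA at the base A of a short sequence around GGAC by a complex built on Mettl3, and proteins such as Ythdc1 bind it. Malat1 lies in nuclear speckles, which store splicing factors, Neat1 is the architectural core of paraspeckles, and Firre and Tug1 are associated with chromatin and nuclear organisation. Pvt1, next to Myc, and Dleu2 are long, mostly intronic loci that host microRNAs, and Gas5 is a host of small nucleolar RNAs.

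The libraries held 40959 to 46735 peaks, and in each 29 to 46 of them lay in the 7 genes. Of 10 marker transcripts of undifferentiated stem cells, 10 had a peak in each Ythdc1 control library, 8 in each Mettl3 control and each cKO library, and 8 or 9 in each Mettl3 knockout library. Their summed peaks numbered 34 and 31 in the Ythdc1 control against 23 and 23 in the cKO. There 7 of their 29 control regions (24.1%) were lost (no peak in either cKO library), against 17.8% of all regions. In the Mettl3 comparison 0 of their 20 control regions were lost from all 4 knockout libraries, against 12.8% of all regions. A list of 8 fibroblast or feeder-cell transcripts had a peak in 5 genes in each Mettl3 control library, in 1 gene in each library of KO1, KO2 or the Ythdc1 control and in 2 genes in each cKO library. Their summed peaks numbered 5 and 7 in the Mettl3 control, 1 to 3 in the Mettl3 knockouts, 1 and 2 in the Ythdc1 control and 5 and 4 in the cKO, and Dcn, Postn and Thy1 had none in any library. The part of either marker list in the differences below was not tested. The Mettl3 gene itself had 1 peak in each Mettl3 control and KO2 library and 0 in each KO1 library, and Ythdc1 had 7 and 6 in the cKO against 7 and 7 in its control. A peak elsewhere in a gene does not check a deletion, so the labels are taken as given.

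The sequences at the summits differed among these long non-coding RNAs, and binding of the antibody to them was not tested. Summits of a region could move between libraries, as at Tug1 region 3, so a printed sequence need not hold the summit of every library. Each line gives the transcript sequence of an exon for at most 50 nt on either side of a region's median summit, 5′ to 3′, from GENCODE M21 on mm10, with each GGAC in capitals. The first 3 are from Tug1, which had the highest median fold, and the next 3 from the last part of Firre, where regions disappeared in the knockouts. The following line is from Dleu2, where the summit lay in a simple repeat, and the next 2 are from Neat1, where summits lay beside simple repeats. The last 2 are the Malat1 summit with the deepest pile-up and the first exon of Pvt1.
Tug1 region 3 (chr11:3646900-3647000, minus strand): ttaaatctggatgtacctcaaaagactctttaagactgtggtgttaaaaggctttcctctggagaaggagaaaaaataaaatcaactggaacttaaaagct
Tug1 region 4 (chr11:3645118-3645218, minus strand): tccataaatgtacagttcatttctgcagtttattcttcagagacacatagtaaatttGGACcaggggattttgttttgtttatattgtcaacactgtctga
Tug1 region 5 (chr11:3640424-3640524, minus strand): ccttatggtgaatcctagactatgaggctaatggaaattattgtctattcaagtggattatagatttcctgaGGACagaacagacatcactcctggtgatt
Firre region 7 (chrX:50564530-50564630, minus strand): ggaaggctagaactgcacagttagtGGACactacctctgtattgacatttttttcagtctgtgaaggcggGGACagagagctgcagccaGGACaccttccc
Firre region 9 (chrX:50560796-50560896, minus strand): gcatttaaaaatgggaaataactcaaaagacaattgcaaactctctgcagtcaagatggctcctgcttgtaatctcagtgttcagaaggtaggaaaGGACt
Firre region 10 (chrX:50558307-50558384, minus strand): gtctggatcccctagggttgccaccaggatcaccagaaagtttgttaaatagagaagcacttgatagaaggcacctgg
Dleu2 region 10 (chr14:61618195-61618288, minus strand): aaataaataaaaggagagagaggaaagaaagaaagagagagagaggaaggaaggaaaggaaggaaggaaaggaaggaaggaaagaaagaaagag
Neat1 region 3 (chr19:5832773-5832873, minus strand): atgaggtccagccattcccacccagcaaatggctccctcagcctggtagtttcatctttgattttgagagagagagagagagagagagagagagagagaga
Neat1 region 5 (chr19:5826635-5826735, minus strand): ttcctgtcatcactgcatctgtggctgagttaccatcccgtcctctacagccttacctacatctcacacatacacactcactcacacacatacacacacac
Malat1 region 1 (chr19:5801290-5801390, minus strand): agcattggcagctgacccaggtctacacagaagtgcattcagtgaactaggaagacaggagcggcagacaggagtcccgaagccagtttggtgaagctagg
Pvt1 region 1 (chr15:62038095-62038195, plus strand): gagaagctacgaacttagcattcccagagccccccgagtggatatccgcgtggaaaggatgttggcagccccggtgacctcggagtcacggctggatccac

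GGAC, searched on the transcript strand within 50 nt of the summit, was present at 93 of 204 exonic member summits, which is 45.6%, against 49.2% of all 181281 exonic summits. The share differed widely among the genes. Firre had it at 23 of 28 exonic summits (82.1%) and Tug1 at 35 of 61 (57.4%), whereas Malat1 had it at 4 of 26 (15.4%). The order depended on the window. Within 100 nt Firre had it at 100%, Pvt1 at 95% (25% within 50 nt), Neat1 at 61.9% and Tug1 at 60.7%. Malat1 and Dleu2 then had it at 38.5% each, against 70.9% of all exonic summits. The longer GGACT, which contains GGAC, was found at 9.8% of the member summits and at 17.8% of all exonic summits. Summits of different libraries at the same region share their sequence, so these shares describe a few sites seen many times. The Dleu2 summits stood apart in base composition. A window of at least 80% A and G was found at 13 of its 26 exonic summits and at none of the exonic summits of the other members, against 0.679% of all exonic summits; this property was chosen after the sequences were seen.

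Malat1 (chr19:5795690-5802672, minus strand), the abundant speckle RNA, carried 26 peaks in 10 libraries, all in its exon and all within the first 52.6% of the gene. It held 3 and 3 peaks in the Mettl3 control, 1 and 2 in KO1, 3 and 3 for KO2, 3 and 3 for the Ythdc1 control and 2 and 3 in the cKO. Region 1, which spans 1677 bases from near the start, was called in 10 of 10 libraries, and region 3, with its median summit 3586 nt after the start, in all but KO1 replicate 1. The 2 summits of region 1, near 162 nt and near 1332 nt, were joined into a single peak in some libraries.

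The deepest summit of Malat1 stood at the highest pile-up of every library, and its fold there was low. The deposited fold and p-value of each peak were solved for the reads at the summit (the pile-up) and the expected reads (the background), and 100% of the peaks gave a whole pile-up. The highest pile-up in each of the 10 libraries was exactly 750 reads, and 49 peaks in all stood at it. Malat1 had its summit at 1330 to 1391 nt at a pile-up of 750 in 10 of 10 libraries, and none of the other 6 members reached it. At that summit the fold was 1.38 and 2.34 in the Mettl3 control, 1.44 and 2.17 in KO1, 1.63 and 1.96 for KO2, 2.09 and 2.13 for the Ythdc1 control and 1.94 and 2.41 in the cKO. With the pile-up fixed, the fold was set by the background, which ran from 311 to 543 reads. The ranges of the groups overlapped, and the values ranked within the lowest 5.05% of their own lists. A fold measured at this limit does not show that the enrichment was low. At the summit near 162 nt, where the pile-up was 666 to 718 reads and so below the limit, the fold was 3.15 in Mettl3 control replicate 1, 3.57 and 3.55 in KO2 and 3.54 and 3.73 in the Ythdc1 control. Those values ranked at percentiles 14.8 to 30.5 of their lists, above the deeper summit. The source of the common limit was not tested.

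**Figure D1:**
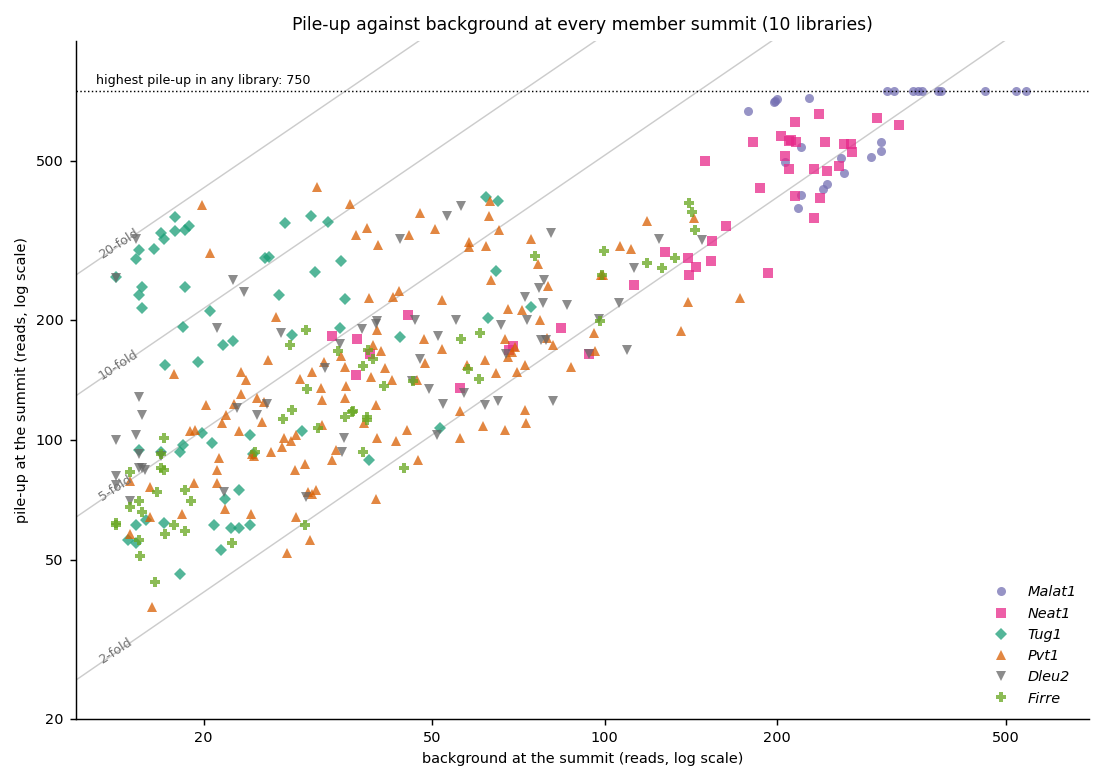
Pile-up (y, reads, log scale) against background (x, reads, log scale) at every peak of 6 members in 10 libraries, with grey lines of equal fold and a dotted line at the highest pile-up of any library, 750. Malat1 fills the upper right, with 10 summits on the dotted line, while the highest folds, up to 19.7, belong to Dleu2 and Tug1 over backgrounds of 15.2 and 17.9 reads.

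Neat1 (chr19:5824708-5845478, minus strand), the scaffold of paraspeckles, carried 42 exonic peaks that gathered at its ends. Region 1, which spans 2263 bases at the start, was called in 10 of 10 libraries, and the other 5 regions appeared in 3 to 5 libraries each. No summit lay between region 2, at 2936 nt, and region 3, at 12655 nt. Peaks numbered 5 and 8 in the Mettl3 control against 3 and 4 in KO1 and 3 and 3 in KO2, and the control and knockout values did not overlap. The difference was -3.25 peaks (control 6.5 ± 2.12 SD, n = 2; knockouts 3.25 ± 0.50 SD, n = 4; two-sided exact permutation test p = 0.0667, the smallest that 15 splits allow; Benjamini-Hochberg adjusted p = 0.624 over 5970 genes), and without control replicate 2 it was -1.75. The bases under the peaks were lower as well, 1714 and 2424 in the control against 870 to 1373 in the knockouts. In the Ythdc1 comparison each of the 4 libraries held 4 peaks, though not the same ones. Region 1 was 1 peak in each control library and 2 in each cKO library, while region 2 had none in the cKO. Towards the 3′ end the cKO pile-ups were higher. At region 4 they were 172 and 135 reads in the control against 486 and 477, over backgrounds of 69.2 and 56.0 against 256 and 209. At region 6 they were 191 and 205 against 558 and 560. At region 1 they were 626 and 577 against 642 and 655. The cause was not tested.

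Several Neat1 regions were called in the libraries of some cell lines only. Region 5, beside a CA-rich repeat and 18793 nt after the start, had folds of 3.85 and 4.12 in the Mettl3 control and 4.74 and 5.31 in KO1. It had no peak in KO2 or in the 4 Ythdc1 libraries. Region 4 (17950 nt) and region 6 (20111 nt), towards the 3′ end that only the long isoform reaches, were called in 4 of 4 Ythdc1 libraries but in 1 of 6 Mettl3 libraries each. Region 3, beside a run of GA repeats at 12655 nt, was called in Mettl3 control replicate 2, KO1 replicate 2 and both KO2 libraries only. Region 2, at 2936 nt, was called in both Ythdc1 controls (folds 2.32 and 2.16) and in Mettl3 control replicate 2 (1.84), but in neither cKO library. The lines were not compared by a test, since their lists share no common control.

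Tug1 (chr11:3639785-3649673, minus strand), a chromatin-associated RNA essential for retinal development, had the highest median fold of the members. That median was 6.22, at percentile 70.9 of the peaks in the same list, and all 61 summits were exonic in at least 1 of its transcripts. Regions 2, 3, 4 and 5 were called in 10 of 10 libraries. Region 3 ranked at or above percentile 92.3 of its list in every library, with folds of 10.7 and 17.7 in the Mettl3 control, 18.2 and 12.9 in KO1, 17.5 and 17.02 for KO2, 18.5 and 17.3 for the Ythdc1 control and 12.2 and 19.2 in the cKO. Control and knockout libraries alike held it among their highest peaks. Its background sat at the list's lowest for this strand in most libraries, at 14.1 to 17.9 reads. Backgrounds were 26.0 and 27.8 at the folds of 10.7 (Mettl3 control replicate 1) and 12.2 (cKO replicate 1), under pile-ups of 287 and 349. The fold of 12.9 in KO1 replicate 2 had a pile-up of 214 over 15.6. The part of background here was not tested. Region 3 holds no GGAC in the window printed above. Its summit lay 2693 to 2724 nt after the start in 7 libraries and 2977 or 2978 nt after it in Mettl3 control replicate 1 and both cKO libraries.

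The number of Tug1 peaks and the length they covered moved in opposite directions. Peaks numbered 5 and 5 in the Mettl3 control, 6 and 7 in KO1 and 7 and 7 in KO2 (difference 1.75, exact permutation p = 0.0667, adjusted p = 0.624), while the bases under them were 4811 and 5267 in the control against 4015 to 4363 in the knockouts. In the Ythdc1 comparison the control held 6 and 8 peaks and the cKO 5 and 5 (difference -2, exact permutation p = 0.333, the smallest that 6 splits allow; adjusted p = 0.770), and the bases were 5353 and 4666 against 5393 and 5458. Neither measure overlapped between controls and knockouts. Region 5, at the 3′ end, accounts for most of the change in number: it was 1 peak of 3287 and 3417 bases in the cKO libraries and 3 separate peaks covering 2186 to 2633 bases in each of the 4 Mettl3 knockout libraries. The Mettl3 control libraries held 2 and 1 peaks there and the Ythdc1 control libraries 2 and 4. The broad Tug1 signal was thus unbroken in the cKO and split in the Mettl3 knockouts, where all 4 control regions were still called.

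**Figure D2:**
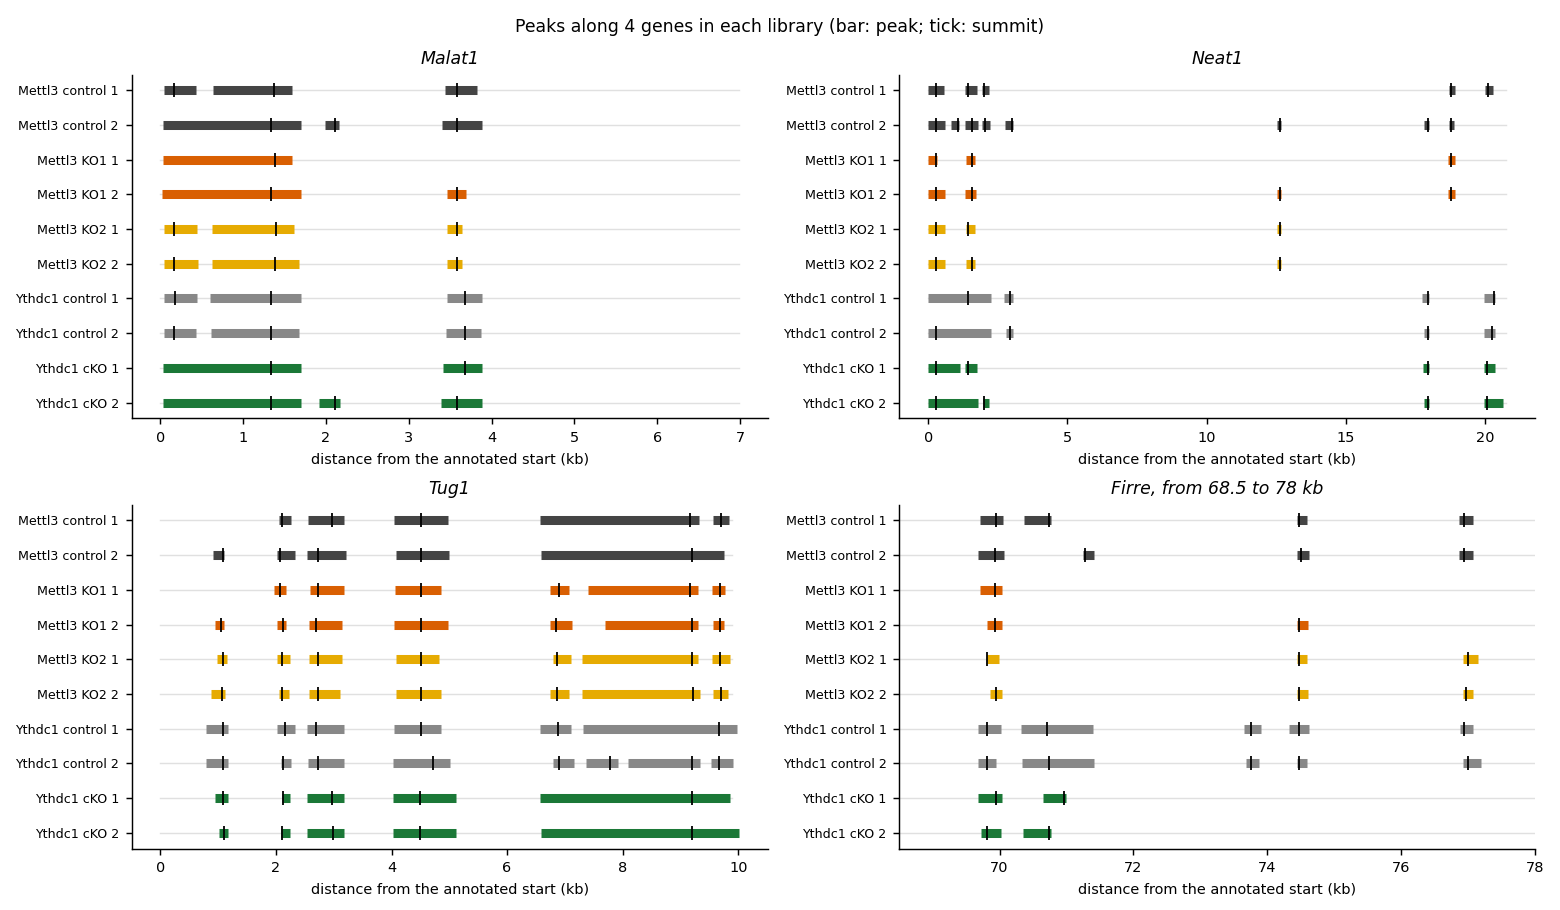
Peaks (bars) and summits (ticks) by library (y) along the distance from the annotated start in kb (x) for Malat1, Neat1, Tug1 and the last part of Firre. The 3′ peak of Tug1 is split into 3 in every Mettl3 knockout library, the Neat1 peaks gather at both ends, and the last Firre regions have no peak in the cKO libraries.

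Firre (chrX:50555744-50635321, minus strand), an X-linked repeat-rich RNA that binds the matrix protein Hnrnpu, had 4 lost regions over the 2 comparisons. It held 6 and 6 peaks in the Mettl3 control, 4 and 5 in KO1 and 5 and 5 in KO2 (difference -1.25, exact permutation p = 0.0667, adjusted p = 0.624). With only peaks of −log10 q of at least 5 the difference was -1.5 (exact permutation p = 0.133). It held 8 and 7 in the Ythdc1 control and 4 and 5 in the cKO (difference -3, exact permutation p = 0.333, adjusted p = 0.770). In both comparisons every knockout library was below every control library, and the bases under the peaks showed the same order, 1465 and 1507 against 940 to 1089 for Mettl3 and 2354 and 3103 against 1192 and 1406 for Ythdc1. By this exact permutation test 0 of the 5970 genes had an unadjusted or adjusted p under 0.05 in either comparison, since neither design can reach it.

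The Firre regions that disappeared lay together in the last part of the gene. Regions 8, 9 and 10, at 73761, 74475 and 76964 nt after the start, were each called in both Ythdc1 controls and in neither cKO library. Region 9 had folds of 5.21 and 5.29 and region 10 of 4.82 and 4.34 in the Ythdc1 control, with pile-ups of 68 to 92 reads. In the Mettl3 lines region 9 was called in both controls (3.47 and 4.70), KO1 replicate 2 (4.03) and both KO2 libraries (4.26 and 4.17), and region 10 in both controls (4.32 and 5.64) and both KO2 libraries (3.26 and 4.11) but in neither KO1 library. Region 8 had no peak in any Mettl3 library. Region 7, at 70741 nt, was called in both Mettl3 controls (3.17 and 3.16) and in none of the 4 Mettl3 knockout libraries, and in all 4 Ythdc1 libraries (4.25 and 4.76 in the control, 3.07 and 3.54 in the cKO). The Mettl3 control summits were apart, at 70741 nt in replicate 1 and 71276 nt in replicate 2, under peaks of 403 and 163 bases. They count as 1 region because the Ythdc1 control peaks of 1081 and 1068 bases join them, and the control peaks themselves do not overlap, so neither site was called in both Mettl3 controls. It carries 3 copies of GGAC in the window printed above. Regions 1, 2 and 6 were called in 10 of 10 libraries. These regions are shallow. The lowest background on this strand, a floor under every fold, was 14.1 to 17.1 reads in the 8 other libraries and 18.6 and 17.9 in the cKO. In the same part of the gene the pile-ups of kept regions were lower in the cKO: at region 7 they were 168 and 167 reads in the Ythdc1 control against 59 and 70, and at region 6, 150 and 185 against 75 and 61. Near the start they overlapped, at 373 and 278 against 297 and 289 for region 1. The backgrounds there were lower as well, 38.7 and 34.3 against 18.6 and 19.03 at region 7, and 57.8 and 60.7 against 18.6 and 30.0 at region 6. The part of depth and background in the calls was not tested. Firre exons repeat within the gene, so reads may be shared between its copies.

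Pvt1 (chr15:62037986-62378096, plus strand), a locus that produces several transcripts beside Myc, carried the most peaks, 128 in 29 regions, of which 20 (15.6%) were exonic. It held 11 and 13 peaks in the Mettl3 control, 17 and 21 in KO1, 17 and 13 for KO2, 10 and 10 for the Ythdc1 control and 7 and 9 in the cKO. The Mettl3 groups overlapped at 13 (difference 5, exact permutation p = 0.267, adjusted p = 0.915). The Ythdc1 groups did not overlap (difference -2, exact permutation p = 0.333, adjusted p = 0.770), but with the strongest 40000 peaks of each list the difference was 1. All 6 Mettl3 libraries held more Pvt1 peaks than all 4 Ythdc1 libraries. Of the 29 regions, 6 were called in a single library.

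Region 1, in the first exon of Pvt1, was called in 10 of 10 libraries with folds of 4.85 and 5.33 in the Mettl3 control, 4.24 to 5.71 in its knockouts, 7.005 and 7.46 in the Ythdc1 control and 6.55 and 7.63 in the cKO. The strongest region was intronic. Region 25, at 155993 nt (chr15:62193699-62194140), had folds of 8.59 and 18.6 in the Mettl3 control, 13.3 and 10.5 in KO1, 8.62 and 13.7 for KO2, 2.95 and 1.79 for the Ythdc1 control and 6.20 and 5.05 in the cKO. It ranked at or above percentile 85.3 of the list in each Mettl3 library, and at percentiles 15.6 and 0.966 in the Ythdc1 controls against 70.5 and 56.1 in the cKO. Regions 6, 7 and 22 were called in both Ythdc1 controls and neither cKO library, and region 16 in both cKO libraries and neither control. The lost calls of regions 6 and 7 were weak in the Ythdc1 controls, with folds of 1.75 to 2.26, and both regions were called in all 4 Mettl3 knockout libraries.

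Dleu2 (chr14:61602839-61682373, minus strand), a host of microRNAs that restrain the cell cycle, carried 63 peaks in 10 regions. It held 7 and 9 in the Mettl3 control, 5 and 7 in KO1, 5 and 6 in KO2 (difference -2.25, exact permutation p = 0.2, adjusted p = 0.915), 5 and 6 in the Ythdc1 control and 7 and 6 in the cKO (difference 1, exact permutation p = 0.667, adjusted p = 1). The groups overlapped in both comparisons. Regions 1, 9 and 10 were called in every library. Region 10, at the purine repeat printed above (97.9% A and G), had folds of 9.63 and 10.7 in the Mettl3 control, 7.85 and 6.97 in KO1, 19.7 and 16.9 for KO2, 5.15 and 4.47 for the Ythdc1 control and 6.76 and 6.73 in the cKO. The highest ranks at this repeat, percentiles 99.7 and 99.1 of their lists, were in KO2, a line labelled as lacking the methyltransferase. Backgrounds there sat at each list's lowest for this strand in KO2 (15.2 and 14.1 reads), KO1 (15.4 and 15.6) and the Ythdc1 control. In the Mettl3 control they were 23.5 and 22.5. Pile-ups were 319 and 254 reads in KO2, 235 and 252 in the Mettl3 control and 128 and 115 in KO1. In the cKO, pile-ups were 386 and 363 over backgrounds of 56.2 and 53.1. In the Ythdc1 control they were 91 and 70 over 16.9 and 14.9. The part of background in these folds was not tested. Regions 4 and 5, both intronic, were called in both cKO libraries and in neither Ythdc1 control, and also in both Mettl3 controls, with folds of 1.53 to 2.504 in the cKO.

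Gas5 (chr1:161034422-161038539, plus strand), a host of small nucleolar RNAs that is stabilised when growth stops, had 1 peak in all, in Ythdc1 control replicate 1. It had a fold of 1.73 over a background of 220 reads, the percentile 0.751 of its list, and no peak was called in the other 9 libraries. With a mean under 2 peaks it did not enter the tests, so 6 of the 7 members did.

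**Figure D3:**
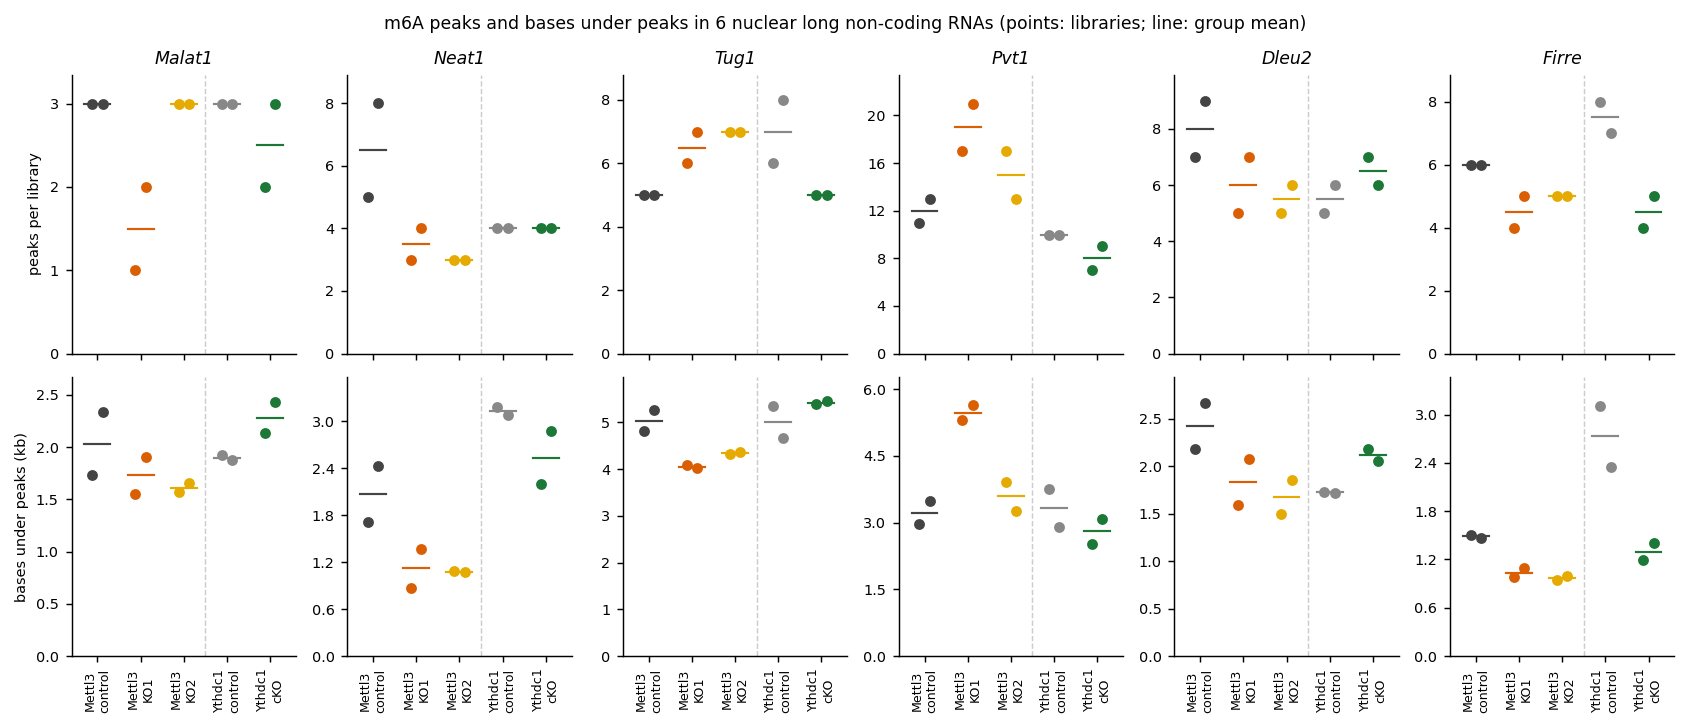
Number of peaks (upper row) and bases under peaks in kb (lower row) for 6 members in each library (points), with group means (lines) and a dashed line between the Mettl3 and Ythdc1 comparisons. Firre is lower in every knockout library than in its controls in both rows, and the 2 rows of Tug1 go opposite ways.

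These counts were set beside those of all genes. In the Mettl3 comparison peak numbers were lower without overlap in 2 of the 6 tested members (Neat1 and Firre) and higher in 1 (Tug1), against 8.74% and 7.04% of all 5970 genes with a mean of at least 2 peaks. In the Ythdc1 comparison they were lower in 3 (Tug1, Pvt1 and Firre) and higher in 0, against 32.1% and 11.2% of all genes. The bases under peaks were lower in 4 members (Tug1, Neat1, Dleu2 and Firre) and higher in 0 in the Mettl3 knockouts, where 28.7% and 9.1% of all genes were. In the cKO they were lower in 2 (Neat1 and Firre) and higher in 3 (Malat1, Tug1 and Dleu2), where 44.9% and 26.3% of all genes were. With 6 members, counts of this size set nothing apart from the background.

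Region by region, lost means that both control libraries and no knockout library had a peak there, kept that every library of the comparison had one, and gained that every knockout library and neither control had one. Of the 32 member regions present in both Mettl3 controls, 1 was lost (region 7 of Firre, which joins the 2 control summits described above) and 21 (65.6%) were kept, and 0 of the 22 present in every knockout library were gained. Over all regions 12.8% were lost, 58.2% kept and 4.4% gained, and over regions of long non-coding genes 14.8%, 52.7% and 4.31%. With KO1 alone 3 of 32 were lost and with KO2 alone 4 of 32, against 23.8% and 18% of all regions. With peaks merged over 10 libraries, Malat1, Neat1, Tug1, Pvt1 and Dleu2 had no region that was lost from all 4 Mettl3 knockout libraries. With only the compared libraries merged, 1 of 33 was lost, against 13.1% of all regions. That cannot be region 7 of Firre, whose control peaks do not overlap, so the lost region depends on the merging. At region 1 of Neat1 the Mettl3 controls held 3 and 4 peaks and each Mettl3 knockout library 2, joined by Ythdc1 control peaks of 2251 and 2255 bases. Without Mettl3 control replicate 1, 5 of 41 regions were lost, against 18.04% of all regions.

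In the Ythdc1 comparison, 7 of 32 control regions (21.9%) were lost, 24 (75%) were kept and 3 of 27 (11.1%) were gained. Over all regions these shares were 17.8%, 72.4% and 27.9%, and over regions of long non-coding genes 16.6%, 74.1% and 25.8%. The lost regions were 3 in Firre, 3 in Pvt1 and 1 in Neat1, and the gained regions were 2 in Dleu2 and 1 in Pvt1. Tug1 kept 5 of 5 and Malat1 2 of 2. When peaks were narrowed to 100 nt around their summits, 12 of 30 were lost, 15 kept and 5 of 25 gained, against 23.3%, 62.5% and 31.95% of all regions. Wide peaks whose summits move, such as those of Malat1 and Tug1, then count as different regions.

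**Figure D4:**
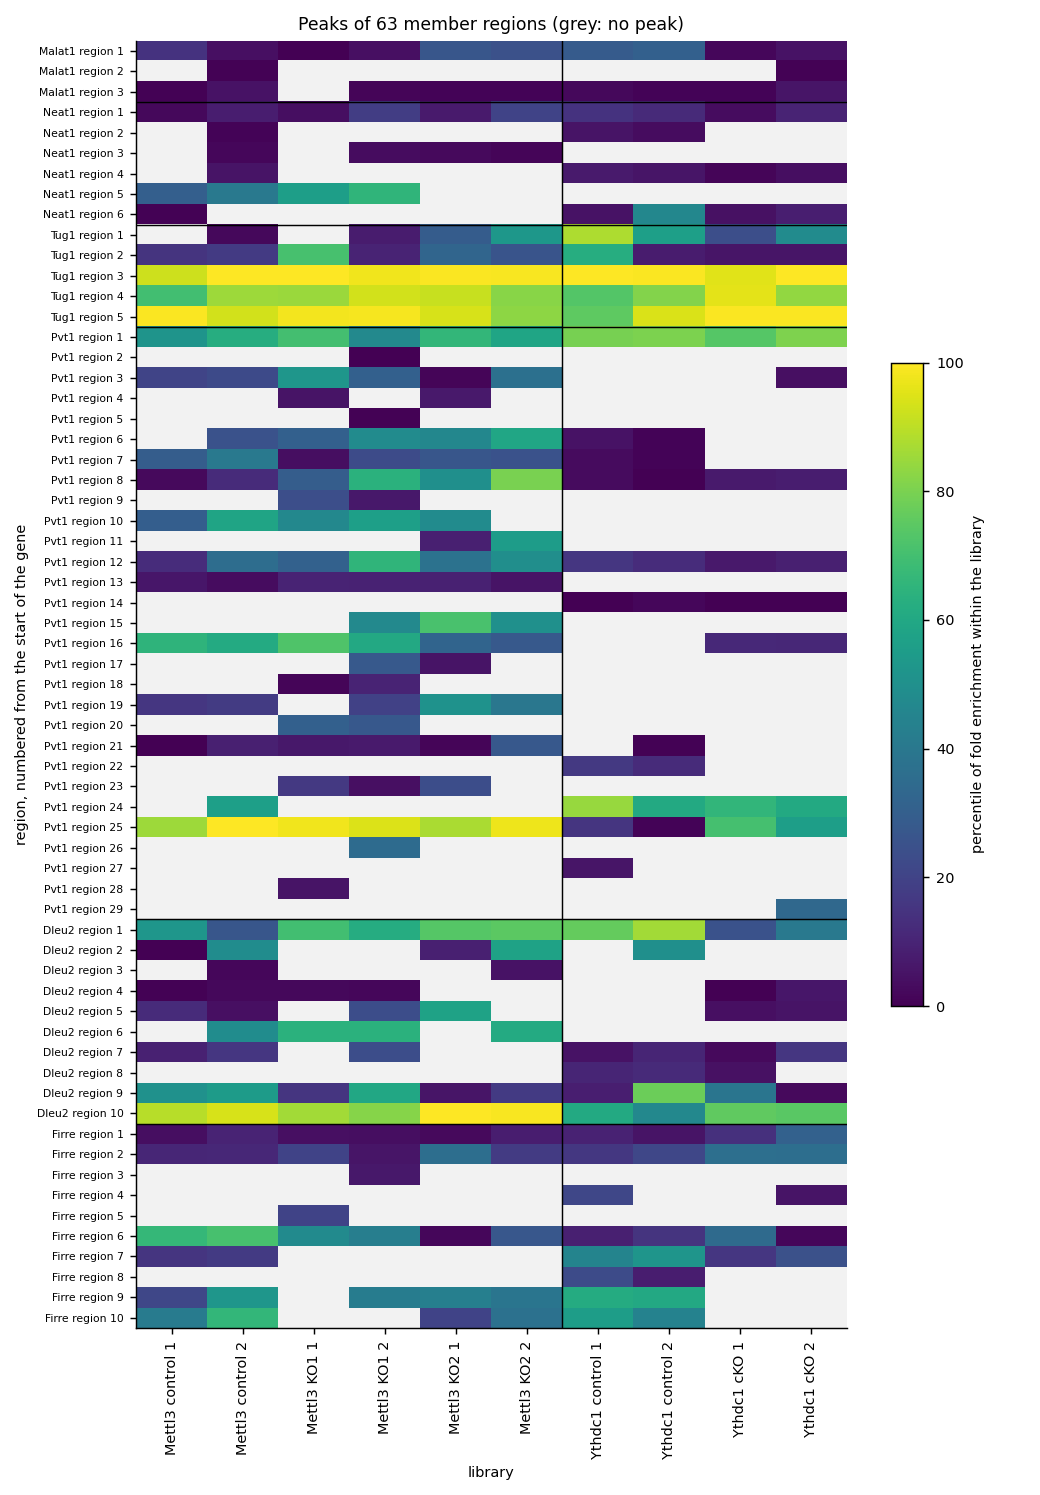
Regions of 6 members (y, numbered from the start of each gene) by library (x), coloured by the percentile of the fold enrichment within that library's list, with grey where no peak was called. Tug1 regions 3, 4 and 5 are bright in 10 of 10 libraries, and Firre regions 8 to 10 are grey in both cKO libraries.

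Other nuclear long non-coding RNAs were counted in the same way. Of 36 listed, 34 were in the annotation and 19 had a peak. In the Mettl3 knockouts 8 of their 72 control regions were lost, 37 kept, and 0 of 38 gained, and the 11.1% lost stood beside 12.8% of all regions. These lost regions included 1 each in Tunar (folds 3.60 and 4.62 in the controls), a stem-cell RNA needed for pluripotency, and in Xist (4.51 and 5.97), the RNA that silences an X chromosome, and 2 each in Airn and Meg3, both imprinted. In the cKO 7 of 63 were lost and 17 of 77 gained, 10 of the gained regions in Airn, 2 in Xist, 2 in Rian and 1 in Meg3. These shares, 11.1% and 22.1%, stood beside 17.8% and 27.9% of all regions. The lost regions of the cKO included a strong Tunar region (6.87 and 5.75 in the Ythdc1 controls) that was called in all 6 Mettl3 libraries, and 1 in Snhg17. The 2 Xist regions gained in the cKO were also called in both Mettl3 controls, and 1 of them in KO1 replicate 1 (fold 2.74). Members and these RNAs were not compared by a test.

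Proteins of speckles and paraspeckles, which share nuclear bodies with Malat1 and Neat1, had a peak in 19 of 20 genes. In the Mettl3 knockouts 2 of their 47 control regions were lost, in Srrm2 and Rbm25, 37 were kept, and 1 of 46 was gained, in Ewsr1. In the cKO 14 of 55 were lost, 34 kept and 2 of 37 gained. Srrm2, a large scaffold protein of speckles, had 2 regions lost and 2 gained in the cKO, the gained ones with folds of 4.70 to 6.61. Ewsr1, Srrm1, Tardbp and Rbm25, all RNA-binding proteins, each had 1 region lost there, and their folds in the Ythdc1 controls ran from 1.45 to 3.90. The cKO shares, 25.5% lost and 5.41% gained, stood beside 17.8% and 27.9% of all regions, and the Mettl3 shares, 4.26% lost and 78.7% kept, beside 12.8% and 58.2%. The stem-cell marker list had 24.1% lost in the cKO.

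Genes whose peak numbers varied most like those of a member over the 10 libraries were found by Pearson correlation of log2(peaks + 1) among 3801 genes, as a description. For Pvt1 they were Gli2 (r = 0.97) and Nr6a1 (r = 0.97), and Gli2 held 10 and 11 peaks in the Mettl3 control, 16 and 19 in KO1, 13 and 13 for KO2, 9 and 9 for the Ythdc1 control and 6 and 7 in the cKO. For Tug1 they were Frmd4a (0.95) and Eif4g1 (0.90), for Firre Gm20388 (0.93) and Gcn1l1 (0.92), for Neat1 Dlgap2 (0.89) and Mettl4 (0.89), and for Dleu2 Gm49342 (0.86) and Wrn (0.86). All points share the 10 libraries and their depths.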

How the data were processed

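Of 20 samples, 10 m6A immunoprecipitation libraries were used, and the 10 inputs were not analysed here. Per the submitters' processing notes, reads were handled with Trimmomatic 0.38, HISAT2 2.1.0 (build mm10), MACS2 and CASAVA. The MACS2 version, settings and control are not given in the sources used here, nor is the read depth. The authors deposited a narrowPeak list per library with a strand for each peak. Its deposited values are a display score (not used), a fold enrichment over background (a ratio) and the −log10 p-value and −log10 q-value at the summit. No deposited peak is shorter than 150 bp. A fold has no common scale between libraries and describes or ranks peaks within a list.

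The 17 to 35 peaks per library on unplaced contigs were left out. Summits were assigned with GENCODE M21. Peaks of 10 libraries were merged per strand at an overlap of 1 bp. Pile-up and background were solved from fold = (pile-up + 1)/(background + 1) and a Poisson tail, within 0.002 on the −log10 scale. The solver and calls recovered 100% on simulated data, where regions were set well apart and pile-ups came from the same Poisson formula. That check does not cover peaks that merge, split or shift, as some did in these lists. Peak numbers were compared by two-sided exact permutation with Benjamini-Hochberg adjustment over 5970 genes (python 3.11.15, numpy 2.4.6, pandas 2.3.3, scipy 1.17.1). Alternatives were narrowed peaks, merging only the compared libraries, a −log10 q of at least 5, the strongest 40000 peaks, other rules for assignment and loss, and leaving out each library. Bases under peaks and A and G content were added after the data were seen. The members, lists and tests were chosen with earlier results of these data known. Named regions were, per member, those lost or gained and the 2 called in most libraries, ties broken by within-list percentile of fold; other regions named here were chosen after their values were seen. Lists name up to 6 genes with a region lost or gained, by that percentile, and 1 such gene and 1 sequence are not reported here. Absence of a peak means that none was called at the depth of that library. No genome sequence was used, so intronic sequences are not shown.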

Additional observations from a re-analysis of the deposited data

Results flagged for a closer look

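The strand opposite to a member was not used in the comparisons, and 2 members had more peaks there in the cKO than in the Ythdc1 control. On the strand opposite to Malat1 the cKO libraries held 3 and 2 peaks, a mean of 2.5, against 1 and 1 in the control. All 15 such peaks in the 10 libraries overlapped a peak on the Malat1 strand, with folds of 2.59 to 8.78, and in each Mettl3 library there were 1 or 2. On the strand opposite to Dleu2 the cKO held 5 and 5, a mean of 5, against 2 and 2, and these peaks lay in other annotated genes on that strand. Neither difference was tested, and no share over all genes is given beside these counts, so they set neither member apart from the background.

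Peak numbers of 3 members differed in opposite directions in the Mettl3 and the Ythdc1 knockouts. The knockout-minus-control difference was 1.75 and -2 for Tug1, 5 and -2 for Pvt1 and -2.25 and 1 for Dleu2. The difference between the comparisons was not tested, and for Pvt1 and Dleu2 groups overlapped in at least 1 of them. With the strongest 40000 peaks of each list the Dleu2 differences were -0.5 (exact permutation p = 1) and 0.5. Those of Pvt1 were then 4 and 1, no longer opposite. The share of all genes with opposite directions is not given here, so these 3 members are not set apart from the background.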

How the results depend on the processing

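With peaks narrowed to 100 nt, 1 of 22 member regions was gained in the Mettl3 knockouts (6.56% of all regions), and in the cKO 12 of 30 were lost, 15 kept and 5 of 25 gained (23.3%, 62.5% and 31.95%). With loss defined as a peak in at most 1 Mettl3 knockout library, 2 of 32 were lost (19.8%). Leaving out each library in turn gave 1 to 5 regions lost, 21 to 24 kept and 0 to 1 gained for Mettl3, and 7 to 9 lost, 24 to 25 kept and 3 to 6 gained for Ythdc1, the 6 without cKO replicate 1. Without Mettl3 control replicate 2, or without KO1 replicate 2, 2 were lost. GGAC was found at 25% of exonic member summits within 25 nt and at 64.2% within 100 nt, against 29.6% and 70.9% of all exonic summits. In the longest transcripts 39.6% of member peaks were exonic. Measured as bases under the peaks, an alternative chosen after seeing the data, the differences of Tug1 were -842 for Mettl3 and 416 for Ythdc1 and that of Malat1 for Ythdc1 was 381, each opposite in sign to the peak number. With the strongest 40000 peaks, Pvt1 for Ythdc1 turned to 1, and for Mettl3 Neat1 was -2.5, Firre -1.25 and Dleu2 -0.5 (exact permutation p = 0.133, 0.267 and 1); the cause was not tested. Without 1 library, the peak difference of Neat1 for Mettl3 ranged from -4.75 to -1.75, of Dleu2 from -3.25 to -1.25, of Malat1 from -1 to -0.333, and of Tug1 and Pvt1 for Ythdc1 from -3 to -1.

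The labels give every group a replicate 1 and 2, without saying that a number marks a shared day or culture. Across 5970 genes the replicate differences of the groups correlated at -0.02 to 0.03, so the peak counts showed no pairing by number. Peak counts per gene are small, so this cannot exclude a shared day or culture. Permuting within the replicate block left the differences as they were (Neat1 -3.25, Tug1 1.75 and Firre -1.25 for Mettl3, exact permutation p = 0.111 each; Tug1 -2, Pvt1 -2 and Firre -3 for Ythdc1, exact permutation p = 0.5 each), the smallest p that the block allows.

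The peak lists hold no read depth, and with 2 libraries a group the exact permutation test used here cannot give a p below 0.05.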

Other observations

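On the strand opposite to Tug1 the 4 Ythdc1 libraries held 3, 2, 2 and 1 peaks with a summit inside the Tug1 body, and the 6 Mettl3 libraries none. The peak called in all 4 lies in Morc2a, a gene that starts beside Tug1 on the other strand, with folds of 12.1 and 12.98 in the Ythdc1 control and 8.503 and 8.475 in the cKO. Its summit, at 3649605 to 3649608, was close to the Tug1 start at 3649673. A Morc2a peak with its summit just outside Tug1 was not counted, so its absence from the Mettl3 libraries is not shown. On the strand opposite to Neat1, 7 peaks were called in 6 libraries, each overlapping a Neat1 peak, with folds of 2.33 to 5.15.

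Near-identical positions recurred at many member summits. At Firre region 2, 8 of 10 libraries placed the summit on the same base, 10879 nt after the start.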
